A study of Homo sapiens with 12 samples.

Results

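The RNAs described here are small nucleolar RNAs (snoRNAs) and small Cajal body RNAs (scaRNAs) of AsPC-1 cells, a long-established human line from a ductal adenocarcinoma of the pancreas. A gene was a member if its symbol starts with SNORA, SNORD or SCARNA and if its raw count averaged at least 10 over the 6 libraries of at least 1 of the count tables, which gave 137 genes of 57820. They are 63 of 194 annotated box H/ACA snoRNAs (SNORA), 57 of 280 box C/D snoRNAs (SNORD) and 17 of 20 scaRNAs (SCARNA). RNA was sequenced in 12 libraries that form 4 groups of 3. SiBACH1 cells were transfected with an siRNA against BACH1 and collected 24 h later, and siCont cells are that experiment's controls. SgBACH1 cells were infected with a lentivirus made from lentiCRISPR v2, a vector for Cas9 with a guide that targets BACH1, and were kept in medium with 10 µg/ml puromycin to select infected cells, and sgCont cells are their controls. The labels name no clone, so a mixed population of edited cells cannot be told from 1 clone. BACH1 encodes a heme-binding transcriptional repressor of antioxidant and heme-breakdown genes. The sequences of the siRNA and of the controls were not used here.

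SnoRNAs are short stable RNAs of the nucleolus that work inside protein particles. Box C/D RNAs, named for a C box near the start and a D box near the end, guide methylation of riboses in ribosomal RNA with the methyltransferase fibrillarin. Box H/ACA RNAs, named for a hinge box and an ACA close to the end, guide conversion of uridine to pseudouridine with dyskerin. ScaRNAs carry the same kinds of box and guide modification of the spliceosomal small nuclear RNAs in Cajal bodies. A few snoRNAs act in cleavage of the ribosomal precursor instead. Most human snoRNAs and scaRNAs are cut out of introns of longer host transcripts, so that host and guide share a promoter.

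The sequences below, from GENCODE 29 transcripts on GRCh38, are shown because the results turn on these RNAs. They are the most abundant member, the SNORA71 and SNORD12 families of chromosome 20 and the members called in both experiments. SNORA37 is shown for the largest fitted rise after the BACH1 guide, from few counts. Capitals mark the ACA of the last bases in SNORA members, and TGATGA (box C) and CTGA (box D) in SNORD members.
SNORA73B: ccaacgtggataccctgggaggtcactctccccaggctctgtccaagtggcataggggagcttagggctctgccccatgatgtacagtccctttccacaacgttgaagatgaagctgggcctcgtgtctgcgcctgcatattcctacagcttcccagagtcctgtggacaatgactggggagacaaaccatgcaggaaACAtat
SNORA71A: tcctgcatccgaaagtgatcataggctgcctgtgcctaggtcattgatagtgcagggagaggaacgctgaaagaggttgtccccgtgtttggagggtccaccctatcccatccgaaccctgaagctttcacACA
SNORA71B: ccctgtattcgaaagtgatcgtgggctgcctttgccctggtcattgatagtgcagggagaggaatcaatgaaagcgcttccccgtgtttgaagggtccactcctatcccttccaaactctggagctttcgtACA
SNORA71C: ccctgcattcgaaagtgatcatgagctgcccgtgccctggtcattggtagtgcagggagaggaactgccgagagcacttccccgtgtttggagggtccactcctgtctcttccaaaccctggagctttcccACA
SNORA71D: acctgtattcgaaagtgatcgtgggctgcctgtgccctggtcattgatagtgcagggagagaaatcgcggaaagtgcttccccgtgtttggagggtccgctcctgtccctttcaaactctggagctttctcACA
SNORD12: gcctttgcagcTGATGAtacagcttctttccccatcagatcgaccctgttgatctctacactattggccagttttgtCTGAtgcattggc
SNORD12B: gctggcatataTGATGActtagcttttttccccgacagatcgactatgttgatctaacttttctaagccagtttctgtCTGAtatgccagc
SNORD12C: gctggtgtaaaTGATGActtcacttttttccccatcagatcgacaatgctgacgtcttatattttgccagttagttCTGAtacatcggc
SNORA37: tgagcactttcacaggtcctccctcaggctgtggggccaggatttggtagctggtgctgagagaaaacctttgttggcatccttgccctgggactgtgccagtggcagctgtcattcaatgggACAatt
SNORA30: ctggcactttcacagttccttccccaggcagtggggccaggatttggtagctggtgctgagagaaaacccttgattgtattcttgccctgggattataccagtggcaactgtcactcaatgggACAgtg
SNORA33: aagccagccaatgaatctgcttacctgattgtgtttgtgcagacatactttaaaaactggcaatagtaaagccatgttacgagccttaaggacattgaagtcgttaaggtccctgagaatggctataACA
SNORD83A: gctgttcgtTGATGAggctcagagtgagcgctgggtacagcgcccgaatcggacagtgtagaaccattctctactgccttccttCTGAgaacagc
ACA stood within the last 9 bases of 60 of 63 SNORA members, against 82.5% of the 194 annotated SNORA genes. TGATGA stood within the first 25 bases of 40 of 57 SNORD members and CTGA within the last 15 bases of 51, against 67.5% and 87.5% of the 280 annotated SNORD genes. A match of these letters is a description and no proof of a working box.

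These members lie in known places of the genome. SNORA71B (chr20:38425198-38425331), SNORA71A (chr20:38427309-38427442), SNORA71C (chr20:38429670-38429803) and SNORA71D (chr20:38433865-38433998) follow each other on the minus strand inside SNHG17, a noncoding host. SNORD12C (chr20:49278940-49279028), SNORD12B (chr20:49280319-49280409) and SNORD12 (chr20:49280683-49280772) lie on the plus strand inside ZFAS1, another noncoding host. SNORA73B (chr1:28508559-28508762, plus strand) lies in SNHG3, SNORA37 (chr18:54222284-54222412, minus strand) in MBD2, SNORA30 (chr16:30710537-30710665, plus strand) in SRCAP, SNORA33 (chr6:132817219-132817348, plus strand) in RPS12 and SNORD83A (chr22:39315213-39315307, minus strand) in RPL3. Coordinates are GRCh38, while the counts were made on hg19. The SNORA71 copies share 83.1% to 90.3% of their bases, the SNORD12 copies 69.8% to 74.2%, and SNORA30 and SNORA37 share 86.2%, so reads of such copies can be split or lost in counting.

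Libraries held 13099706 to 21478886 gene counts. Members took 0.734% to 0.923% of the counts in siBACH1 libraries and 0.746% to 1.02% in siCont libraries, and 0.314% to 0.401% in sgBACH1 libraries and 0.296% to 0.330% in sgCont libraries. BACH1 itself had 24.7, 27.5 and 24.6 CPM (counts scaled to the size of the library) in siBACH1 cells, against 196, 289 and 195 CPM in siCont cells (log2 fold change -3.15 ± 0.17, edgeR adjusted p = 4.09e-06). It had 220, 199 and 186 CPM in sgBACH1 cells, against 270, 295 and 279 CPM in sgCont cells (log2 fold change -0.48 ± 0.08, adjusted p = 4.48e-05). Replicate 2 of siCont stood apart: its counts differed from those of replicates 1 and 3 by a chi-square per degree of freedom of 30.5 and 35.8, against 8.89 between replicates 1 and 3. All 8 markers of ductal epithelium passed the filter on low counts. None of the 7 markers of leukocytes, fibroblasts, acinar or endocrine cells found in the tables passed it, INS and GCG stood at 0 in every library, and none of the others averaged above 0.775 CPM in a group. Whether the replicates of a group came from separate cultures is not stated, so a p-value reflects only how far these libraries scatter, which may be technical.

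The fragment size of the libraries may limit which RNAs are seen, which was not tested. Per the labels' protocols, RNA was bound to a silica column, depleted of ribosomal RNA, fragmented and made into libraries with fragments of 100 to 200 bp. Of the annotated candidates under 80 bases, 14.7% were members, and the share was 17.4% from 80 to 99 bases, 31.7% from 100 to 129, 44.6% from 130 to below 150 and 41.9% from 150 bases on. These pooled shares mix length with class. From 130 to below 150 bases the share was 41.6% within box H/ACA and 33.3% within box C/D. From 150 bases on it was 19.2% of 26 within box H/ACA and 66.7% of only 9 within box C/D. Within box C/D alone the median length was 86 bases for the 57 members and 80 for the 223 genes below the threshold. Of the 494 candidates, 276 had no count in any library. Just inside the threshold were SNORA15 with a mean count of 10.0 and SNORA63D with 10.3, and just outside were SNORD101, SNORD51 and SNORA10B with 9.17 each. A host on the same strand was annotated for 127 members, 105 of them in a protein-coding gene, 12 members overlapped an exon of their host, and 12 lay opposite a gene on the other strand. The closest relative shared at least 90% of the bases of 24 members. In bulk libraries, less RNA per cell and fewer cells that make it cannot be told apart.

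Between 51.7% and 62.9% of the member counts of a library came from 4 RNAs, SNORA73B, SNORD3A, SNORD17 and SCARNA6. Per kilobase of length, SNORA73B led with 8095 CPM over the 12 libraries, and SNORD3A followed with 4269. SNORA73B is a box H/ACA RNA of ribosomal precursor cleavage, and SNORD3A is a copy of the U3 RNA, which also acts in cleavage on the way to the small subunit. SNORD17 had 1670 CPM per kilobase and SCARNA6, a guide of Cajal bodies, 1281. The medians of the classes were 49.0 CPM per kilobase for box H/ACA, 42.5 for box C/D and 91.9 for scaRNAs, while levels within box H/ACA reached down to 2.91. The level of members thus spanned over 3 orders of magnitude per kilobase, where the minimum count for a member bounds the low end.

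SNORA73B had 2583, 1926 and 1918 CPM in siBACH1 cells and 2811, 2736 and 1786 CPM in siCont cells, and these groups overlapped. It had 1280.4, 1093 and 837 CPM in sgBACH1 cells and 949, 919 and 979 CPM in sgCont cells, which overlapped too. Its log2 fold change was -0.20 ± 0.18 (SE) for siBACH1 over siCont (adjusted p = 0.466, edgeR) and 0.17 ± 0.10 for sgBACH1 over sgCont (adjusted p = 0.214). SNORD3A had 1589, 1078 and 1143 CPM in siBACH1 cells and 1489, 857 and 1190 CPM in siCont cells. It had 510, 576 and 689 CPM in sgBACH1 cells and 708, 499 and 787 CPM in sgCont cells. Neither of these abundant RNAs passed the test in either BACH1 comparison. Over the 12 libraries, the log2 level of SNORA73B followed the summed level of all members most closely (Pearson r = 0.987), then SNORA74A (0.987), SCARNA10 (0.986), SNORA49 (0.984) and SCARNA3 (0.982), where SNORA73B is itself a large part of the sum and the libraries fall into separate experiments.

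Summed over the class, box H/ACA members had 4478, 3585 and 3358 CPM in siBACH1 libraries, against 5101, 5042 and 3396 CPM in siCont libraries. In the guide experiment they had 2137, 1813 and 1465 CPM in sgBACH1 libraries, against 1420, 1368 and 1485 CPM in sgCont libraries. The sums overlapped between BACH1 and control cells in both experiments, while every library of the guide experiment was below every library of the siRNA experiment. Box C/D members summed to 2882 ± 420 CPM in siBACH1 cells and 3074 ± 501 CPM in siCont cells, and to 1344 ± 68.2 CPM in sgBACH1 cells and 1398 ± 151 CPM in sgCont cells (SD, n = 3 each). ScaRNAs summed to 1325 ± 102 CPM in siBACH1 cells and 1237 ± 168 CPM in siCont cells, and to 420 ± 56.4 CPM in sgBACH1 cells and 374 ± 31.5 CPM in sgCont cells. These sums follow the few most abundant members. Without the 4 RNAs of highest count, the other 133 members summed to 1834, 1571 and 1355 CPM in sgBACH1 libraries and 1206, 1257 and 1299 CPM in sgCont libraries, and these did not overlap. In the siRNA experiment the same members summed to 3733, 3511 and 3118 CPM in siBACH1 libraries and 4528, 4390 and 3250 CPM in siCont libraries, which overlapped.

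**Figure D1:**
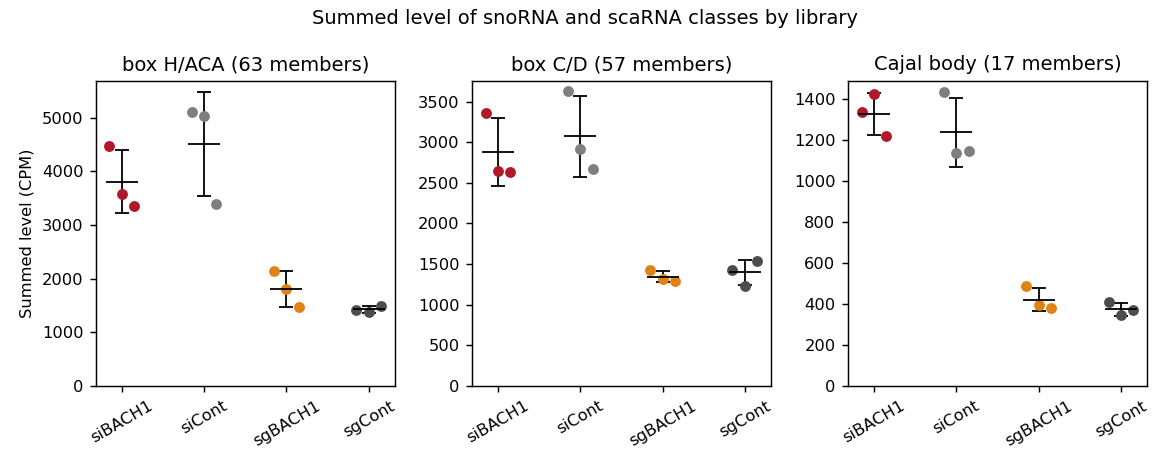
Summed level in CPM (y axes, linear from 0) of box H/ACA, box C/D and Cajal body members in each of 12 libraries (points, ordered by replicate), with mean and SD for each group of 3. In all 3 classes the sgBACH1 and sgCont libraries lie below the siBACH1 and siCont libraries, and box H/ACA sums reach 2137 CPM in sgBACH1 and 1485 CPM in sgCont.

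The first comparison asks what the knockdown of BACH1 did to these RNAs within 24 h. In all, 7 of 134 members tested changed in siBACH1 cells, with 1 higher and 6 lower, and most others leaned down without passing the test. The lower ones were SNORA30, SNORA33, SNORD83A, SNORA38, SNORD13 and SCARNA18. Over all genes tested, 10.9% were called higher and 13.0% lower, so the members' counts were below the background in both directions. The median log2 fold change was -0.34 over members, against 0.00 over all genes tested, with 27 members above 0 and 107 below. By class it was -0.37 for box H/ACA, -0.32 for box C/D and -0.21 for scaRNAs. The groups did not overlap for 14 members (10.4%), against 42.6% of all genes tested. A call is an adjusted p below 0.05 in the quasi-likelihood test of edgeR, adjusted by Benjamini-Hochberg over every gene tested.

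SNORA30, a box H/ACA RNA inside the chromatin remodeller gene SRCAP, had 6.95, 6.53 and 5.21 CPM in siBACH1 cells, against 12.03, 14.0 and 8.18 CPM in siCont cells. All siBACH1 libraries were below all siCont libraries, and its log2 fold change was -0.87 ± 0.23 (adjusted p = 0.0222). Its host SRCAP moved the other way, at 0.37 ± 0.08 (adjusted p = 0.0110). SNORD83A, in an intron of the ribosomal protein gene RPL3, had 24.7, 18.2 and 20.2 CPM in siBACH1 cells, against 36.1, 36.5 and 28.0 CPM in siCont cells. It fell by 0.68 ± 0.15 on the log2 scale (adjusted p = 0.0113) with groups that did not overlap, while RPL3 had a log2 fold change of -0.09 ± 0.07 (adjusted p = 0.383). SNORA33, in RPS12, had 78.5, 68.1 and 49.95 CPM in siBACH1 cells, against 129, 128 and 69.9 CPM in siCont cells. There the lowest siCont library lay among the siBACH1 libraries, and the log2 fold change was -0.74 ± 0.24 (adjusted p = 0.0496). RPS12 had a log2 fold change of -0.03 ± 0.08 (adjusted p = 0.860).

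SNORA38, in PRRC2A, had 10.2, 9.73 and 7.59 CPM in siBACH1 cells, against 15.4, 14.6 and 13.3 CPM in siCont cells, without overlap. Its log2 fold change was -0.66 ± 0.16 (adjusted p = 0.0170). SNORD13, which guides acetylation of the small subunit rRNA and has no annotated host, had 127, 129 and 103 CPM in siBACH1 cells, against 188, 166 and 141 CPM in siCont cells. These groups did not overlap either, and it fell by 0.47 ± 0.13 on the log2 scale (adjusted p = 0.0244). It lies opposite TTI2, and reads of both strands cannot be told apart unless counting used strand. SCARNA18 had 16.9, 17.2 and 15.2 CPM in siBACH1 cells, against 29.5, 27.8 and 18.05 CPM in siCont cells. It fell by 0.61 ± 0.18 (adjusted p = 0.0369), and among these members it alone had a host that fell too, TMEM167A at -1.05 ± 0.10 (adjusted p = 9.56e-05). The riser, SNORD3B-2, had 3.45, 2.74 and 3.84 CPM in siBACH1 cells, against 2.17, 1.57 and 1.11 CPM in siCont cells. Its log2 fold change was 1.05 ± 0.32 (adjusted p = 0.0407), but its sequence is the same as that of SNORD3B-1 and shares 99.5% with the far more abundant SNORD3A, so its count is uncertain.

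None of these 7 calls outlasted the loss of each library in turn. SNORA30, SNORA33, SNORD13 and SCARNA18 lost the call without any 1 of the 3 siBACH1 replicates and without siCont replicate 1, with adjusted p between 0.0514 and 0.174. SNORA38 lost it without siBACH1 replicate 3 or siCont replicate 1 (adjusted p 0.0565 to 0.0675). SNORD83A lost it without siBACH1 replicate 2 or 3 (0.0542 to 0.0548), and SNORD3B-2 without any 1 siBACH1 replicate or siCont replicate 3 (0.0669 to 0.145). The number of members called was 4, 1 and 0 without siBACH1 replicates 1, 2 and 3. It was 2, 18 and 35 without siCont replicates 1, 2 and 3. With the members' own summed count as library size, which measures change relative to the other members, 1 member was called, SNORD3B-2 with a log2 fold change of 1.22. Shares of all genes called in these refits are not given here.

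The second comparison asks what the BACH1 guide did in selected cells. In sgBACH1 cells 20 members rose and 2 fell of 111 tested, against 11.3% of all genes called higher and 12.3% lower. Of 50 box H/ACA members tested 12 rose and none fell, of 46 box C/D members 6 rose and none fell, and of 15 scaRNAs 2 rose and 2 fell. The median log2 fold change was 0.50 over members (0.69 box H/ACA, 0.36 box C/D, 0.48 scaRNAs), against 0.01 over all genes tested. Groups did not overlap for 36 members (32.4%), near the 36.5% of all genes. The 26 members not tested had too few counts, and a low member could pass the filter through the group where it is higher. Of the 66 members that averaged at least 100 counts over the 12 libraries, all tested, 16 rose and 2 fell, and their median was 0.37.

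**Figure D2:**
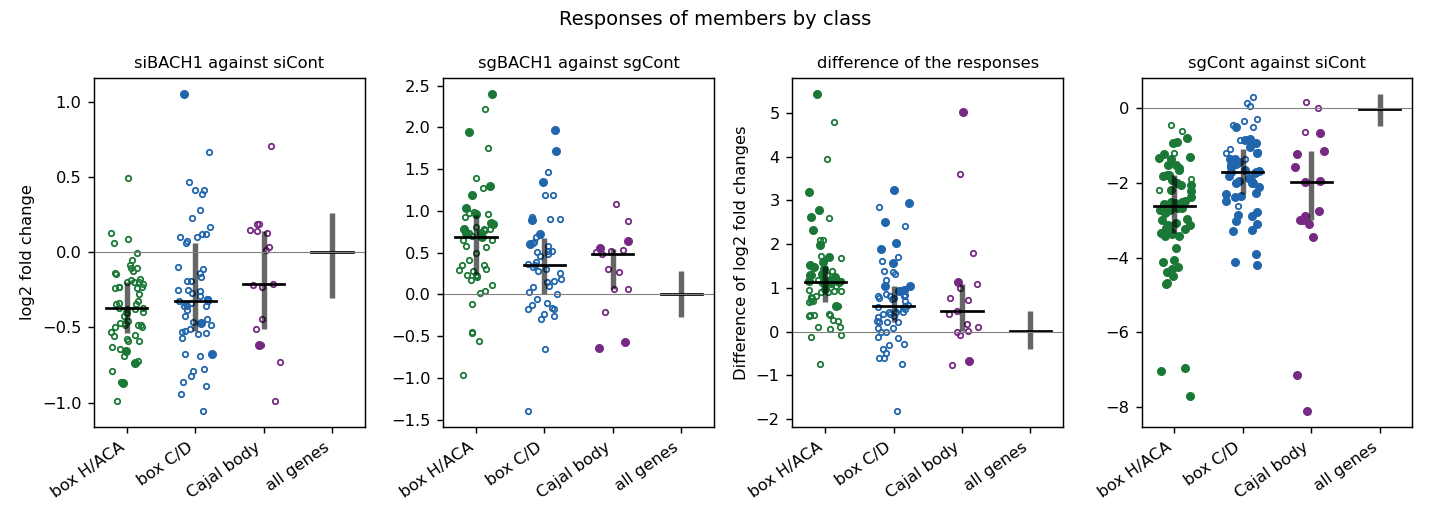
Log2 fold changes (y axes, a different range in each panel) of tested members by class in each comparison; the third panel shows the difference of the log2 fold changes of sgBACH1 over sgCont and siBACH1 over siCont. Points are members, filled where the adjusted p is below 0.05; black lines are medians and grey bars the range between the quartiles, drawn alone for all genes tested. Box H/ACA medians are -0.37, 0.69, 1.13 and -2.61 from left to right.

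Of the 20 risers, 6 lie on chromosome 20, where 6 of 9 tested members rose. SNORA71A, one of the SNORA71 box H/ACA guides of the small subunit rRNA, had 129, 120 and 100 CPM in sgBACH1 cells, against 44.7, 55.2 and 53.3 CPM in sgCont cells. Its log2 fold change was 1.19 ± 0.11 (adjusted p = 8.22e-09), and the lowest sgBACH1 library was well above the highest sgCont library. SNORA71C had 52.0, 47.0 and 35.7 CPM in sgBACH1 cells, against 21.7, 20.6 and 23.5 CPM in sgCont cells (log2 fold change 1.03 ± 0.15, adjusted p = 8.44e-06). SNORA71D had 98.4, 90.5 and 74.9 CPM in sgBACH1 cells, against 44.7, 51.3 and 50.8 CPM in sgCont cells (0.85 ± 0.11, adjusted p = 2.68e-06). SNORA71B, described because it completes the family and after its values were seen, had 50.9, 34.6 and 27.5 CPM in sgBACH1 cells, against 23.7, 20.98 and 17.8 CPM in sgCont cells (0.85 ± 0.18, adjusted p = 0.00101). No SNORA71 copy had overlapping groups here. In siBACH1 over siCont the 4 copies lay between -0.34 and -0.05 on the log2 scale, and none passed the test.

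The host of the SNORA71 copies, SNHG17, had 31.1, 27.3 and 41.2 CPM in sgBACH1 cells, against 20.7, 14.7 and 31.0 CPM in sgCont cells. Those groups overlapped, and its log2 fold change was 0.58 ± 0.20 (adjusted p = 0.0362). In the SNORD12 family, SNORD12B had 15.2, 12.7 and 9.84 CPM in sgBACH1 cells, against 4.05, 6.57 and 4.29 CPM in sgCont cells. It rose by 1.34 ± 0.27 on the log2 scale (adjusted p = 0.000495) without overlap. SNORD12C and SNORD12, also described after their values were seen, had log2 fold changes of 0.72 ± 0.16 (adjusted p = 0.00171) and 0.46 ± 0.24 (adjusted p = 0.180). Their host ZFAS1 had 81.2, 83.9 and 73.2 CPM in sgBACH1 cells, against 60.5, 75.1 and 66.7 CPM in sgCont cells, and its log2 fold change was 0.24 ± 0.10 (adjusted p = 0.105). Other genes of chromosome 20 also leaned upward: of its 392 genes tested 92 rose and 37 fell, with a median log2 fold change of 0.16, against 0.85 for its 9 members. The part of this lean in the members' rise was not tested. The other members of the chromosome are SNORA60 and SNORD17, which did not pass the test.

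**Figure D3:**
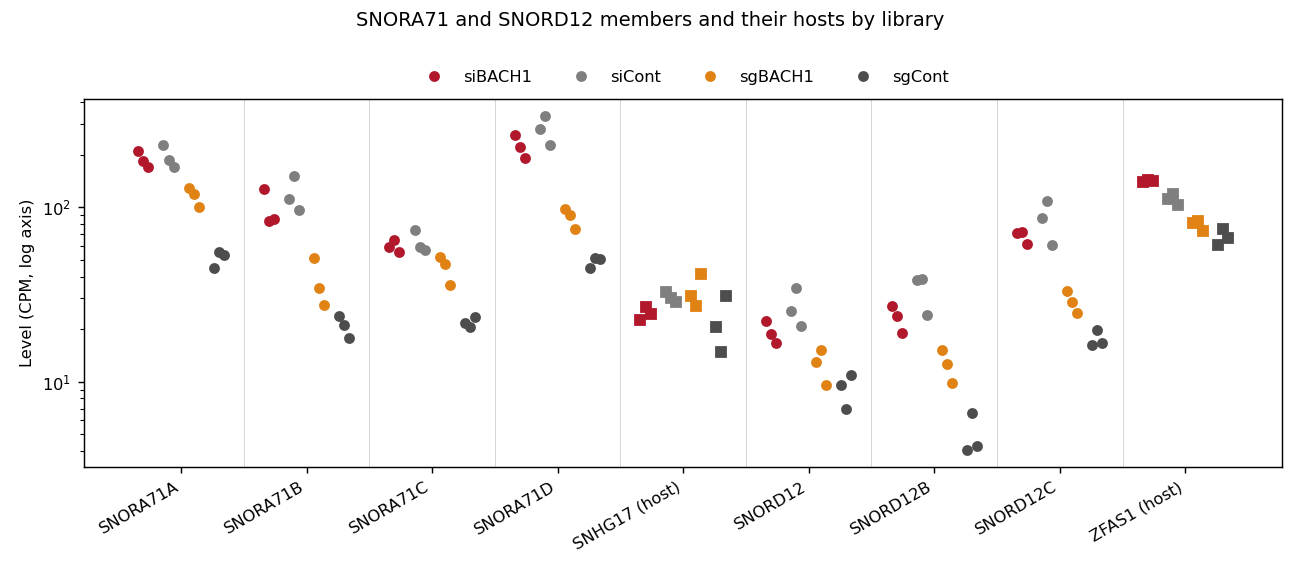
Level in CPM (y axis, log scale) of the SNORA71 and SNORD12 members (circles) and of their hosts SNHG17 and ZFAS1 (squares) in each library, by group. SNORA71A stands between 100 and 129 CPM in sgBACH1 and between 44.7 and 55.2 CPM in sgCont, while SNHG17 overlaps between these groups.

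Among the other risers, the largest changes were in RNAs of few counts. SNORA37, in an intron of the methyl-CpG binding protein gene MBD2, had 1.58, 4.07 and 2.09 CPM in sgBACH1 cells, against 0.594, 0.495 and 0.357 CPM in sgCont cells. Its log2 fold change was 2.40 ± 0.63 (adjusted p = 0.00610), and MBD2 rose by 0.50 ± 0.15 (adjusted p = 0.0160). Without sgBACH1 replicate 2 the call on SNORA37 was lost (adjusted p = 0.113). SNORD111B had 4.20, 0.877 and 2.38 CPM in sgBACH1 cells, against 0.486, 0.636 and 0.774 CPM in sgCont cells (1.97 ± 0.64, adjusted p = 0.0267). SNORD11, in the box C/D core protein gene NOP58, had 2.62, 3.88 and 3.15 CPM in sgBACH1 cells, against 1.78, 0.989 and 0.119 CPM in sgCont cells (1.72 ± 0.62, adjusted p = 0.0476). SNORD111B and SNORD11 did not overlap between groups, yet calls were lost. SNORD111B lost its call without sgBACH1 replicate 1 or 3 or sgCont replicate 1 or 3 (adjusted p 0.0551 to 0.296), and SNORD11 without any 1 sgBACH1 replicate or sgCont replicate 2 or 3 (0.0577 to 0.182). SNORA37, SNORD111B and SNORD11 passed the filter on low counts through sgBACH1 cells, where they were higher. Their calls therefore do not support a direction. SNORA14A, in POR, had a log2 fold change of 1.30 ± 0.41 (adjusted p = 0.0221) and SNORA2A, in KANSL2, 0.97 ± 0.33 (adjusted p = 0.0370). SNORA14A lost its call without sgBACH1 replicate 1 or 2 or sgCont replicate 1 (adjusted p 0.0550 to 0.185), and SNORA2A without any 1 of 5 libraries, all but sgCont replicate 1 (0.0887 to 0.142).

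The fallers were both scaRNAs. SCARNA7, a box C/D guide for methylation of a spliceosomal RNA, had 32.5, 23.4 and 27.5 CPM in sgBACH1 cells, against 43.2, 38.5 and 48.8 CPM in sgCont cells. Groups did not overlap, its log2 fold change was -0.64 ± 0.14 (adjusted p = 0.00139), and its host, the importin gene KPNA4, had -0.16 ± 0.09 (adjusted p = 0.238). SCARNA21 had 10.8, 11.2 and 10.7 CPM in sgBACH1 cells, against 17.7, 17.2 and 13.8 CPM in sgCont cells. It fell by 0.57 ± 0.20 on the log2 scale (adjusted p = 0.0362), close to its host CHD3, a chromatin remodeller, which fell by 0.56 ± 0.08 (adjusted p = 5.73e-06). SCARNA21 lost its call without any 1 sgBACH1 replicate and without sgCont replicate 1 or 2 (adjusted p 0.0740 to 0.107). The abundant SCARNA5, in the autophagy gene ATG16L1, had 73.6, 63.6 and 59.0 CPM in sgBACH1 cells, against 55.3, 31.7 and 46.5 CPM in sgCont cells. It rose by 0.55 ± 0.15 (adjusted p = 0.00667), beside ATG16L1 at 0.48 ± 0.08 (adjusted p = 4.83e-05), and lost its call without sgBACH1 replicate 1 (adjusted p = 0.0825).

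Of the 22 calls, 7 held without each library in turn: SNORA71A, SNORA71B, SNORA71C, SNORA71D, SNORD12B, SNORD12C and SCARNA7. The number of members called was 10 without sgBACH1 replicate 1 and 14 without sgBACH1 replicate 2. With the members' summed count as library size, 9 members rose and 3 fell. The share of all genes called under that library size is not given here. SNORA71A still had a log2 fold change of 1.02 (adjusted p = 6.44e-08), while SNORD12C was no longer called (0.55, adjusted p = 0.0569).

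The third comparison sets the responses against each other: the log2 fold change of sgBACH1 over sgCont minus that of siBACH1 over siCont, tested in 1 fit of 12 libraries. It was above 0 and called for 33 of 136 members and below 0 and called for 1, against 13.0% of all genes called above 0 and 10.6% below. Box H/ACA members gave 21 of the positive calls, box C/D 10 and scaRNAs 2. Medians of the difference were 1.13, 0.59 and 0.48 in that order, against 0.02 over all genes tested. Of the 111 members tested in each experiment, 75 were negative in siBACH1 over siCont and positive in sgBACH1 over sgCont. The leans of the experiments taken alone were 107 of 134 members negative and 92 of 111 positive. The count of 75 was not set against these leans or against all genes, so it shows no switch of single members. The experiments share no control library, but they differ in the way BACH1 was targeted and in selection. A collection time is recorded only for the siRNA libraries, so time may differ too. These differences cannot be told apart here. Without siBACH1 replicate 2 or 3 the number called was 22 in each case.

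The members called in both BACH1 comparisons were SNORA30, SNORA33 and SNORD83A, 3 in all, and each was lower in siBACH1 and higher in sgBACH1. Of the siRNA calls 6 of 7 were lower, and of the guide calls 20 of 22 were higher, so shared calls would mostly be opposite. The count of 3 was not set against these leans or against all genes, so it shows no switch of single members. SNORA30 had 2.13, 1.25 and 1.65 CPM in sgBACH1 cells, against 0.594, 0.141 and 0.536 CPM in sgCont cells. Its log2 fold change there was 1.94 ± 0.69 (adjusted p = 0.0425), which was lost without any 1 of the 6 libraries (adjusted p 0.0588 to 0.211). With 35, 20 and 34 counts in sgBACH1 cells against 11, 2 and 9 in sgCont cells, SNORA30 passed the filter on low counts through the group where it was higher, so its call in the guide experiment does not support a direction. SNORA33 had 26.7, 21.4 and 16.1 CPM in sgBACH1 cells, against 13.7, 13.1 and 10.4 CPM in sgCont cells, without overlap. It rose by 0.78 ± 0.20 (adjusted p = 0.00525), a call lost without sgBACH1 replicate 1 (0.0764). SNORD83A had 13.2, 12.3 and 13.9 CPM in sgBACH1 cells, against 5.13, 10.0 and 6.08 CPM in sgCont cells, also without overlap. It rose by 0.90 ± 0.25 (adjusted p = 0.0103), a call lost without sgBACH1 replicate 3 or sgCont replicate 1 (0.0506 to 0.0527).

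The difference of the responses was 2.79 ± 0.52 for SNORA30 (adjusted p = 0.000763), 1.51 ± 0.32 for SNORA33 (0.00234) and 1.57 ± 0.29 for SNORD83A (0.000708). All 3 of these calls held without each of the 12 libraries. Their hosts SRCAP, RPS12 and RPL3 had log2 fold changes of -0.21, -0.11 and 0.07 in sgBACH1 over sgCont, none of which passed the test. The largest other called differences with counts in every group were those of SNORD9 (3.25 ± 1.13, adjusted p = 0.0469), SNORA31 (3.19 ± 0.80, adjusted p = 0.00740), SNORD11B (2.93 ± 0.96, adjusted p = 0.0345) and SNORA37 (2.62 ± 0.56, adjusted p = 0.00246). The differences for SNORA30 and SNORA37 reuse few sgCont counts, so they do not support a direction of the guide response. SNORD9 averaged below 10 counts over the guide libraries, and the sgCont counts of SNORA31 and SNORD11B are not given here. No direction of the guide response is drawn from their differences either. SNORD9 and SNORD11B lost their calls without 10 and 7 of the 12 libraries, with adjusted p from 0.0523 to 0.142. SCARNA7 gave the negative call (-0.67 ± 0.20, adjusted p = 0.0223), which was lost without siBACH1 replicate 2, siCont replicate 3, sgBACH1 replicate 2 or sgCont replicate 3 (0.0625 to 0.0728).

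**Figure D4:**
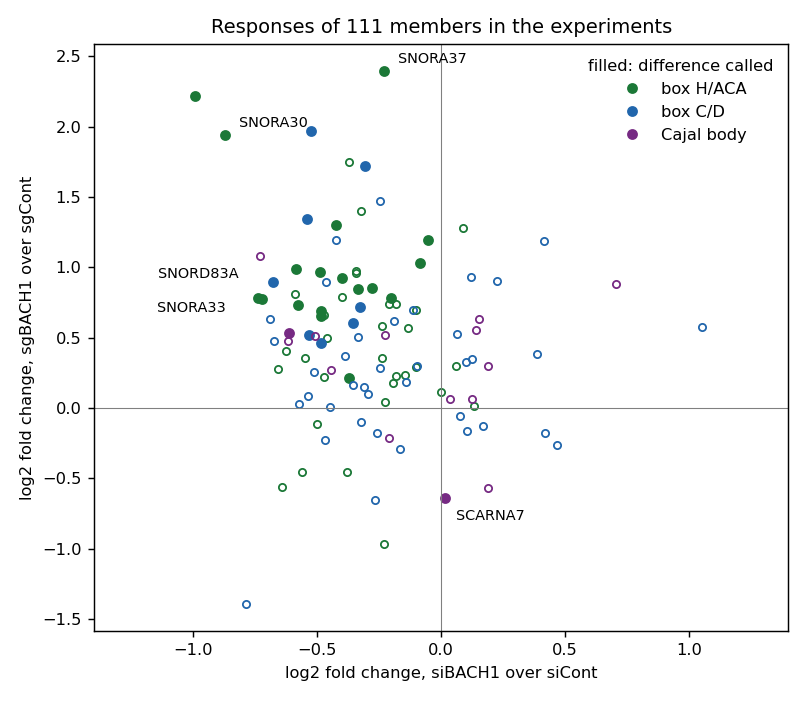
Log2 fold change of sgBACH1 over sgCont (y axis) against siBACH1 over siCont (x axis) for the 111 members tested in each experiment, coloured by class and filled where the difference of the responses was called. SNORA30, SNORA33 and SNORD83A lie left of 0 and above 0, SNORA37 reaches 2.40 on the y axis and SCARNA7 lies at -0.64.

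The control groups differed in more members than either BACH1 comparison did. Of 136 members tested, none was higher in sgCont and 112 were lower in sgCont than in siCont, against 18.1% of all genes called higher and 19.8% lower. The median log2 fold change was -1.998 over members (-2.61 box H/ACA, -1.69 box C/D, -1.98 scaRNAs), against -0.01 over all genes tested. Experiment, transfection and lentiviral selection cannot be told apart in it. All 137 members reached the minimum count in the siRNA table and 109 in the guide table, so the choice of members leans the same way. Among the 109 that reached it in both tables, none was higher, 91 were lower, and the median was -1.86. With the members' own summed count as library size, 20 of the 112 had a positive log2 fold change, among them SNORD3A at 0.61 (adjusted p = 0.00105). With it 17 members were higher and 61 lower in sgCont, so the members did not all shift by 1 factor. The share of all genes called under that library size is not given here.

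SNORA30 was among those with the lowest values in sgCont relative to siCont, with a log2 fold change of -4.67 ± 0.40 (adjusted p = 1.14e-07). SNORA19 had -4.70 ± 0.79 (adjusted p = 0.000159) with 9 counts over the 3 sgCont libraries and 208 over the 3 siCont libraries. SNORA77 had -4.49 ± 0.53 and SNORA75 had -4.30 ± 0.53. In all, 5 members had no count in any sgCont library. Against a floor of 3 counts over the group, SCARNA23 was at least 34.3-fold lower in sgCont than in siCont, SNORA11 at least 24.8-fold, SCARNA14 at least 16.4-fold, SNORA80C at least 15.6-fold and SNORA79 at least 14.5-fold. At the other end SCARNA7 averaged 43.5 ± 5.15 CPM in sgCont cells and 43.0 ± 6.57 CPM in siCont cells (SD, n = 3 each; log2 fold change 0.02 ± 0.14, adjusted p = 0.925), and SCARNA21 16.2 ± 2.14 CPM in sgCont cells and 14.3 ± 4.90 CPM in siCont cells (0.18 ± 0.20, adjusted p = 0.497).

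Hosts went both ways. The 101 distinct hosts tested had a median log2 fold change of 0.01 in sgCont over siCont, with 29 higher and 27 lower. Of all genes tested, 18.1% were called higher and 19.8% lower. The 125 members in these hosts had a median of -2.05. Of the 104 such members called, 30 had a host called lower too, 30 a host called higher and 44 a host not called. In sgBACH1 over sgCont, 84 hosts had a median of 0.05 with 11 higher and 10 lower, beside 11.3% of all genes called higher and 12.3% lower. The 102 members in these hosts had a median of 0.50. Of 21 such members called, 8 had a host called in the same direction, 1 had a host called in the other direction and 12 had a host that was not called. Spearman's rho between members and hosts was 0.19 over these 102 members and 0.17 over the 125, where members of 1 host share its value. Of 13 members tested inside ribosomal protein genes 3 rose in sgBACH1 cells, with a median of 0.41, and of the other 98 members 17 rose, with a median of 0.51, beside 11.3% of all genes.

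**Figure D5:**
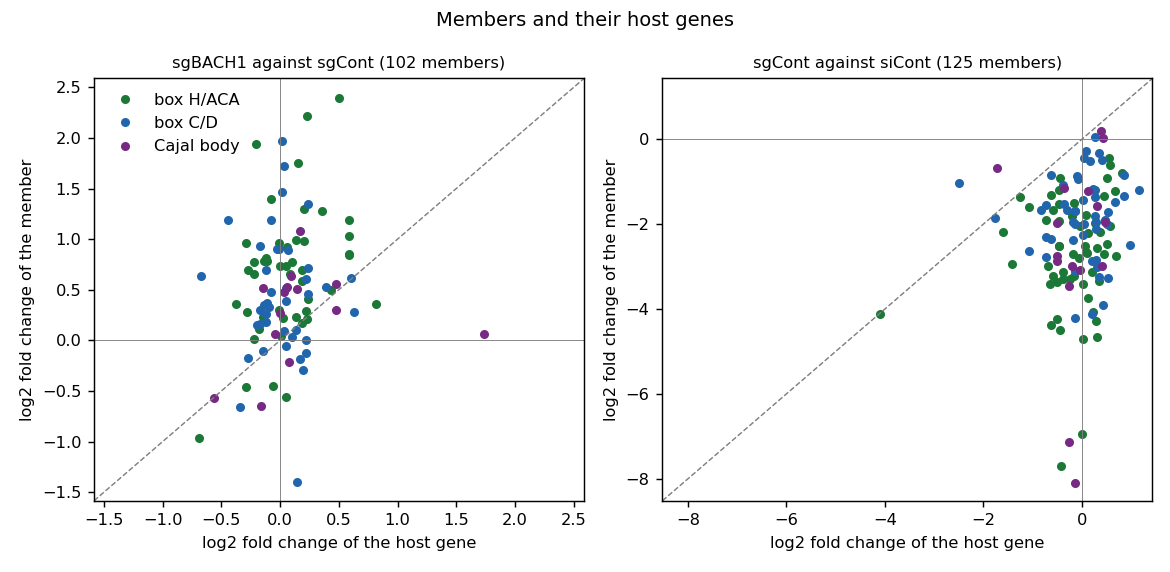
Log2 fold change of each member (y axes) against that of its host gene (x axes) for sgBACH1 over sgCont (102 members, left) and sgCont over siCont (125 members, right), coloured by class, with the line of equality dashed. In the right panel members centre on -2.05 and their hosts on 0.01.

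Length and class went together. In sgBACH1 over sgCont, members under 100 bases had a median log2 fold change of 0.42 (34 tested), those from 100 to below 150 bases 0.64 (60) and those of 150 bases or more 0.06 (17). In sgCont over siCont the same classes of length had medians of -1.84, -2.52 and -1.63. Box H/ACA RNAs fill most of the middle class, and the part of length in the class values was not tested. Over the members tested, Spearman's rho between length and log2 fold change was -0.17 in sgBACH1 over sgCont and 0.01 in sgCont over siCont.

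Other short noncoding RNAs are the nearest comparison for what these libraries hold. Of 17 tested, 6 rose and 1 fell in sgBACH1 cells, with a median log2 fold change of 0.50. Over all genes tested, 11.3% were called higher and 12.3% lower there. RNU4ATAC, an RNA of the minor spliceosome, had 35.1, 27.3 and 17.5 CPM in sgBACH1 cells, against 11.6, 13.0 and 12.03 CPM in sgCont cells (1.13 ± 0.21, adjusted p = 0.000201), and the U5 gene RNU5D-1 rose by 2.54 ± 0.75 (adjusted p = 0.0152). RNU5D-1 passed the filter on low counts through sgBACH1 cells, where it was higher, so its call does not support a direction. RMRP, the RNA of a nuclear and mitochondrial endonuclease, fell by 0.19 ± 0.07 (adjusted p = 0.0371). In siBACH1 cells none of 19 rose and 5 fell, with a median of -0.48, beside 10.9% of all genes called higher and 13.0% lower. Among the fallers the Y RNA RNY1 had 288, 291 and 255 CPM in siBACH1 cells, against 759, 945 and 585 CPM in siCont cells (-1.46 ± 0.16, adjusted p = 0.0002), and RNY4 fell by 1.34 ± 0.27 (adjusted p = 0.00651). In sgCont over siCont none of 20 was higher, 14 were lower and the median was -2.06, beside -1.998 for the members. Of all genes tested, 18.1% were called higher and 19.8% lower in that comparison.

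A list of genes known mainly as snoRNA hosts, noncoding except for the protein-coding TAF1D, was read beside the members. Of 23 tested, 10 rose, none fell and 13 did not pass the test in sgBACH1 cells, with a median log2 fold change of 0.30, beside 11.3% of all genes called higher and 12.3% lower. SNHG12 had 300, 264 and 200 CPM in sgBACH1 cells, against 162, 175 and 167 CPM in sgCont cells (0.60 ± 0.10, adjusted p = 8.77e-05), and SNHG7 rose by 0.57 ± 0.08 (adjusted p = 3.65e-06). In siBACH1 cells 2 rose and none fell: ZFAS1 at 0.33 ± 0.08 (adjusted p = 0.0171) and EPB41L4A-AS1 at 0.63 ± 0.11 (adjusted p = 0.00345). Over all genes tested, 10.9% were called higher and 13.0% lower there. In sgCont over siCont 1 was higher and 19 were lower, with a median of -0.89, beside 18.1% of all genes called higher and 19.8% lower. No source used here says how reads that lie in both a snoRNA and its host were counted.

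The proteins that carry these RNAs, their assembly factors and their processing enzymes were read as a list. Of 34 genes of the snoRNA and scaRNA machinery tested, 2 rose and 3 fell in siBACH1 cells, and 3 rose and 3 fell in sgBACH1 cells, with medians of -0.04 and 0.03, beside 10.9% of all genes called higher and 13.0% lower in siBACH1 cells and 11.3% and 12.3% in sgBACH1 cells. None of the 4 box C/D core genes FBL, NOP56, NOP58 and SNU13 passed the test in either comparison. Among the 4 box H/ACA core genes, DKC1, which encodes dyskerin, had 146, 147 and 140 CPM in sgBACH1 cells, against 101, 118 and 111 CPM in sgCont cells (0.39 ± 0.08, adjusted p = 0.00106). GAR1 had 7.68, 5.69 and 8.65 CPM in siBACH1 cells, against 15.5, 12.5 and 13.1 CPM in siCont cells (-0.90 ± 0.19, adjusted p = 0.00804). In siBACH1 cells the assembly factors NAF1 and RUVBL1 fell by 0.50 ± 0.15 (adjusted p = 0.0399) and 0.39 ± 0.11 (0.0326), and TCOF1 and TERT rose by 0.31 ± 0.10 (0.0459) and 1.75 ± 0.46 (0.0236). In sgBACH1 cells the assembly factors PIH1D1 and RUVBL2 rose by 0.49 ± 0.11 (0.00115) and 0.35 ± 0.10 (0.0104). PARN, a poly(A) ribonuclease of RNA end trimming, fell by 0.50 ± 0.12 (0.00218), TCOF1 fell by 0.24 ± 0.09 (0.0439) and TERT, the catalytic subunit of telomerase, fell by 1.32 ± 0.47 (0.0419).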

How the data were processed

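RNA of AsPC-1 cells was sequenced in 12 libraries, 3 in each of 4 groups, on an Ion Torrent instrument per the labels. The authors deposited raw read counts per gene in 2 tables, one per experiment. HTSeq 0.9.1, SAMtools and hg19 are named in the submitters' processing notes. The aligner, strand setting and treatment of reads with several matches are not given in any source used here. Lengths, hosts, sequences and coordinates came from GENCODE 29 (GRCh38) by gene ID without its version. Symbols came from a separate list of current gene names, which matched 51996 of 57820 IDs, and from GENCODE 29 where that list had none. For 5 members the symbol differs from the name in GENCODE 29. The members and gene lists were chosen with earlier results of these data known.

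Counts were fitted with edgeR 4.0.16 (R 4.3.3) by its quasi-likelihood test, two-sided, with TMM scaling, filterByExpr at a minimum count of 10 and Benjamini-Hochberg adjustment over all genes tested; adjusted p below 0.05 is a call. Each experiment was fitted alone, and the difference of the responses and the control groups in 1 fit of 12 libraries. CPM levels use TMM over 12 libraries. The SE is the log2 fold change divided by the root of the test's F. The fits were also run on simulated counts with a single fixed scatter, in which only genes of higher mean count were changed. Those runs do not speak to members of few counts or of wider scatter. Depth was 13099706 to 21478886 counts per library, which leaves members of few counts with wide errors.

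Alternatives were DESeq2 1.42.0, limma-voom (limma 3.58.1), other scalings, no filter, a replicate block, stricter membership and leaving out each library. Named were the 5 members of highest mean CPM per class, up to 10 called members each way per comparison by size of log2 fold change, their hosts, up to 6 called genes per list and the 5 members most like the summed level. The text names a selection of these, plus SNORA71B, SNORD12 and SNORD12C, chosen after their values were seen.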

Additional observations from a re-analysis of the deposited data

Results flagged for a closer look

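Of the 34 members whose response to the guide differed from the response to the siRNA, 11 are given here, the 10 of largest positive difference and the negative one. The difference was tested by the interaction term of the fit over 12 libraries (edgeR quasi-likelihood, Benjamini-Hochberg adjustment over all genes). The difference, sgBACH1 over sgCont minus siBACH1 over siCont on the log2 scale, was 2.79 for SNORA30 (adjusted p = 0.000763), 2.62 for SNORA37 (0.00246), 3.19 for SNORA31 (0.00740) and 2.49 for SNORD111B (0.0110). It was 2.32 for SNORA22 (0.0258), 2.02 for SNORD11 (0.0361), 2.93 for SNORD11B (0.0345) and 3.25 for SNORD9 (0.0469). Without single libraries the calls on SNORA22, SNORD11, SNORD11B and SNORD9 were lost in 7, 6, 7 and 10 of 12 cases, and those on SNORA30, SNORA37, SNORA31 and SNORD111B in none. The differences for SNORA30, SNORA37, SNORD111B and SNORD11 reuse few sgCont counts, so they do not support a direction of the guide response. SNORD9 averaged below 10 counts over the guide libraries, and the sgCont counts of SNORA31, SNORA22 and SNORD11B are not given here. No direction of the guide response is drawn from their differences either. The fitted values of 5.42 for SNORA11 (0.0129) and 5.03 for SCARNA23 (0.0436) are no measure of size, since no sgCont library held a count of either. SCARNA23 lost its call without 10 of the 12 libraries (adjusted p 0.0502 to 0.146), while SNORA11 kept its call in all 12 cases. SNORA11 had 12 counts over the sgBACH1 libraries and SCARNA23 had 11. SCARNA7 went the other way, with -0.67 (0.0223).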

How the results depend on the processing

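Of the 7 members called in siBACH1 over siCont, none was called under every alternative; the count was 1 with the summed count of members as library size, 32 with no filter on low counts, 17 with DESeq2 and 16 with the replicate block, and 0 to 35 without single libraries. In sgBACH1 over sgCont 22 became 12 with the summed count of members as library size, and 10 to 20 without single libraries. For the difference of the responses 34 became 19 with that library size, and 22 to 43 without single libraries; in sgCont over siCont 112 became 102 to 114 without single libraries, and 17 higher and 61 lower with that library size. With that library size the medians in sgCont over siCont were -1.17 for box H/ACA, -0.21 for box C/D and -0.54 for scaRNAs, and in sgBACH1 over sgCont 0.18 for box C/D and 0.27 for scaRNAs. The scaRNA median in sgCont over siCont was -2.74 with limma-voom and -2.68 with the replicate block. The box H/ACA median in sgBACH1 over sgCont was 0.50 over members with a stem of their own. Without single libraries, the medians of box H/ACA, box C/D and scaRNAs ran from -0.59 to -0.29, -0.52 to -0.11 and -0.31 to -0.0202 in siBACH1 over siCont. They ran from 0.56 to 0.79, 0.26 to 0.51 and 0.26 to 0.62 in sgBACH1 over sgCont, and from -2.79 to -2.39, -1.85 to -1.50 and -2.46 to -1.87 in sgCont over siCont. The causes were not tested. Shares of all genes called under these alternatives are not given here, and the shares of the main fit are no background for these counts. With that library size 20 of the 112 members called lower in sgCont turned positive. For the members named by size of change, 548 values kept their direction and side of the threshold and 131 kept the direction only. Same-numbered libraries did not pair (correlations 0.046, 0.036 and 0.008 in the siRNA experiment, -0.005, 0.038 and 0.038 in the guide experiment), and the replicate block gave 23, 35 and 100 calls in sgBACH1 over sgCont, the difference and sgCont over siCont. Depth limits members near the minimum count, which single libraries decide.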
